A study of Homo sapiens with 9 samples.

Results

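The untreated SKOV3 cultures of the series are described here by the level of each measured gene. SKOV3 is an established human ovarian tumour cell line. The cultures were chosen by their titles: 3 of the 9 arrays held total RNA from untreated cells, and the other 6 held RNA from cells given a peracetylated sugar, which are not used. Each of the 3 arrays held RNA from a separate flask of cells kept for 3 days in McCoy's medium with fetal bovine serum and no added compound. The cultures are of a single cell line, with no stroma, vessels or immune cells added, and the labels name no vehicle for the untreated flasks. A level is the deposited log2 value of a probe set, and 14215 genes had a probe set that named a single gene. With 1 group there is no contrast, so levels and their spread are given and no test was made.

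SKOV3 is known as an epithelial ovarian tumour line with a partly mesenchymal shape, an amplified ERBB2 gene and a lost CDKN2A gene. In the epithelial to mesenchymal transition, transcription factors of the SNAI, ZEB and TWIST families repress cadherin and keratin genes of the epithelium while genes for vimentin, fibronectin and N-cadherin come on. Most ovarian carcinomas are thought to carry traits of the Mullerian duct, the embryonic source of the oviduct and uterus, whose cells keep the factor PAX8.

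Because a probe set's level depends on its probes as well as on the RNA, levels of different genes are not read as amounts of RNA. Each gene is placed in the distribution of its own array. The reference was a family that this tissue is not known for, the olfactory receptors, of which 220 were measured. The 95th percentile of their levels was 5.35, 5.68 and 5.20 on untreated replicates 1, 2 and 3, and is called the olfactory mark. Of the 14215 genes, 9208 lay above it on each of the 3 arrays (64.8%), 4005 lay at or below it on each (28.2%) and 1002 fell on both sides (7.05%). The last are called borderline. A stricter second mark was taken from 73 taste receptor, hair, defensin, crystallin and PRAME family genes, at 6.57, 6.89 and 6.60, and 6729 genes (47.3%) passed it on each array. A gene is called high when it passed the 90th percentile of all genes on each array, which was 9.70, 9.57 and 9.72, and 1289 genes (9.07%) did. The median over all genes was 6.75. Counts for a list of genes are read beside these shares, and a list median is the median of its members' mean levels. The lists were chosen with earlier results of these data known, so their shares describe the members listed and give no evidence about a class of genes. A list chosen by name holds genes with unlike probes, so its median places it in the distribution and is no amount of RNA.

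A low level does not show that a gene is silent. TPI1, the glycolytic triose phosphate isomerase that cells in general use, read 4.27, 5.42 and 4.68 and stayed below the olfactory mark on each array. Of 27 measured cytosolic ribosomal protein genes, 19 passed the mark, 4 were borderline and 4 lay below it, among them RPS19 (4.93 ± 0.30) and RPS13 (4.53 ± 0.51). Nor is a level above the mark proof of RNA. The mark is the 95th percentile of the 220 olfactory receptor genes, so some of them pass it by construction. On each array 7 did so, which gives no rate of false calls, and 0 passed the second mark.

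**Figure D1:**
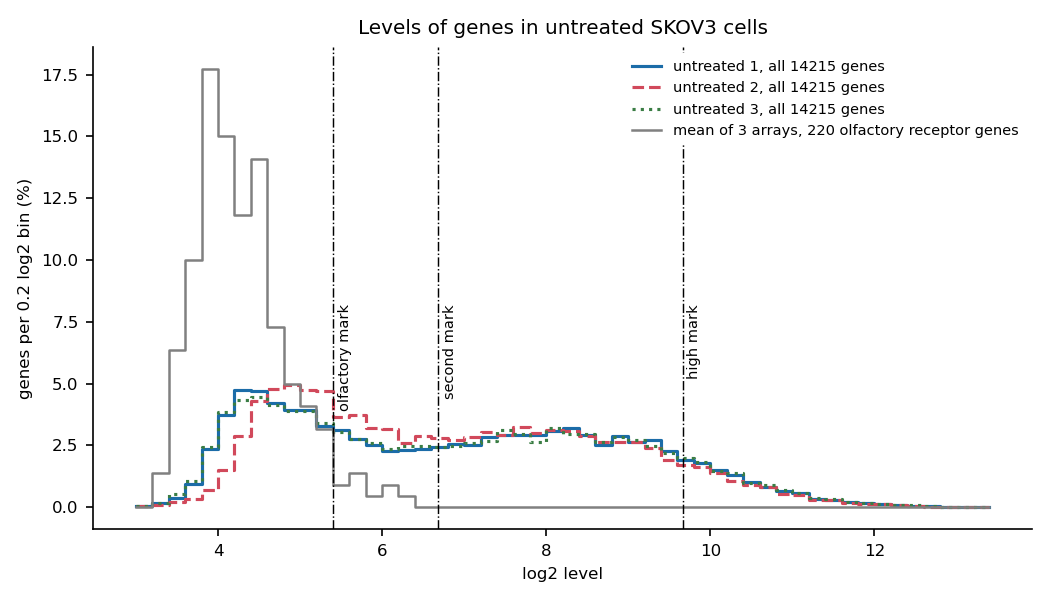
Histograms of log2 levels of all 14215 genes on each of the 3 untreated arrays, as percent of genes per bin, with the mean levels of 220 olfactory receptor genes in grey. Vertical lines give the means over the arrays of the olfactory mark, the second mark and the high mark. Untreated replicate 2 has fewer genes at the lowest levels than the other arrays.

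Array medians over probe sets lay between 6.59 and 6.64. Untreated replicate 2 stood apart: its SD over probe sets was 1.92, against 2.08 on each of the others, and its olfactory receptor median was 4.44 against 4.10 and 4.05. Pairs of arrays correlated over probe sets at r = 0.9909 to 0.9955, which describes arrays of 1 line that share their gene order. The median SD of a gene over the 3 arrays was 0.140, and it was 0.109 among high genes and 0.178 among genes below the olfactory mark. Replicate 2 was the array farthest from the gene's median over the 3 for 47.8% of genes, and for 71.2% of those below the mark, where it read highest for 3474 of 4005. Replicate 2 read lowest for 867 of 1289 high genes and for 5151 of 9208 genes above the olfactory mark. Since the marks were set on each array, the lifted floor raised the olfactory and second marks with it. The high mark of replicate 2 was the lowest, at 9.57 against 9.70 and 9.72.

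Of the 5 genes chosen to mark these cells, all but AMTN had an SD among flasks below the median SD of all genes, 0.140. ERBB2, the receptor tyrosine kinase HER2, read 12.28, 12.20 and 12.18 (12.22 ± 0.05, SD, n = 3), at percentile 99.8 of all genes. AMTN, which encodes the enamel protein amelotin, read 11.04, 11.28 and 11.40 (11.24 ± 0.18), also high, at percentile 98.8. KRT19, a keratin of simple epithelia, was high at 9.92, 9.86 and 9.81 (9.86 ± 0.05). COL1A1, a chain of fibrillar collagen usually made by fibroblasts, read 9.12, 9.07 and 9.07 (9.09 ± 0.03), and MUC1, a mucin of glandular surfaces, 8.32, 8.56 and 8.53 (8.47 ± 0.14). These last 2 passed both marks and were not high. None of the 5 had an array on the other side of a mark from the rest.

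Promoters of 4 genes are shown for what they have in common or not with the level of the gene. They are the 250 bases before the start site that RefSeq gives (GRCh38.p14), with each CpG dinucleotide in capitals: ERBB2 (chr17:39687844-39688093, plus strand) and AMTN (chr4:70518319-70518568, plus strand) were high, MUC1 (chr1:155192916-155193165, minus strand) lay between the second mark and the high mark, and CDKN2A (chr9:21995325-21995574, minus strand), which encodes inhibitors of the cell cycle, read 4.49, 4.58 and 4.39, below the olfactory mark on each array. The authors' build was hg18, so the positions are RefSeq's and not those of the probes. A gene can have several start sites and the table holds 1.
ERBB2: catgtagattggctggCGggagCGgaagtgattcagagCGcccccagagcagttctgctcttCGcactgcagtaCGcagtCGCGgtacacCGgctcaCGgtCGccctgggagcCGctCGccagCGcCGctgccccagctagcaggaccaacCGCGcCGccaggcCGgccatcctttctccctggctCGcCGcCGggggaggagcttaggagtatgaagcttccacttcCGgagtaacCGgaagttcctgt
AMTN: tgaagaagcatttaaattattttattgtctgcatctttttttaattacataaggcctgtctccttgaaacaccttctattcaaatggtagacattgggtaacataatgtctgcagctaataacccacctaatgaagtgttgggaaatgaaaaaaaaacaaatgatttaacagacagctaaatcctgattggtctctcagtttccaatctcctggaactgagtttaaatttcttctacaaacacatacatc
MUC1: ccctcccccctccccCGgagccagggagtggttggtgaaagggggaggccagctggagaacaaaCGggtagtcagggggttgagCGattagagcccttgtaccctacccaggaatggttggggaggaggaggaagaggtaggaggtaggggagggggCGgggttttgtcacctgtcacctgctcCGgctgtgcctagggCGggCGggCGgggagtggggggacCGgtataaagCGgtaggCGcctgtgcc
CDKN2A: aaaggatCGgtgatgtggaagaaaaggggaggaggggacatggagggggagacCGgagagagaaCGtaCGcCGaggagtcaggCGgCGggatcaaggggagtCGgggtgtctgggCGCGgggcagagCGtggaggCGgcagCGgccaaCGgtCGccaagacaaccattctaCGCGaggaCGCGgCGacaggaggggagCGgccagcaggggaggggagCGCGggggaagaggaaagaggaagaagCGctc
The ERBB2 window holds 23 CpG and the CDKN2A window 24, while that of MUC1 holds 11 and that of AMTN 0. Thus AMTN is high without any CpG in its window. ERBB2, which was high, and CDKN2A, which was low, both have a CpG-rich window in the reference genome. However, SKOV3 is known for a lost CDKN2A gene, and whether these cells carry that window was not measured. The low level of CDKN2A is therefore not read beside its CpG count. The letters TATAAA, searched on both strands, are present in the MUC1 window and not in the other 3.

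Over all genes, CpG-rich promoters went with higher levels. A window was counted as CpG-rich when its CpG count was over 0.6 of that its C and G content would give at random order. Of 11367 genes with a window in the table, 66.2% were CpG-rich. The share was 30.5% of the 3005 genes below the olfactory mark, 81.4% of the 7619 above it and 86% of the 1093 high genes. With the genes put in 10 equal groups by level, the share went from 23.2% in group 1, the lowest, to 84.5% in group 7, and lay between 85.7% and 87.3% in the 3 groups above. TATAAA was found in 15.3% of windows of genes below the mark, 5.16% of those above it, 6.5% of those of high genes and 8.21% of all. The median GC content of these windows was 53.6%, 65.6%, 66% and 63.2%, in that order. How often a string of A and T occurs depends on that content, and its part was not tested. The shares describe windows of 1 genome with 1 level each, and no test was made. Of the 1093 high genes, 21 had at most 2 CpG in the window. Among them were KRT8, a simple epithelial keratin (11.19 ± 0.13), and TFPI, for an inhibitor of tissue factor (9.92 ± 0.21). Windows of 8 high genes had none, such as AMTN and ANXA1, for annexin A1 (12.53 ± 0.12).

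**Figure D2:**
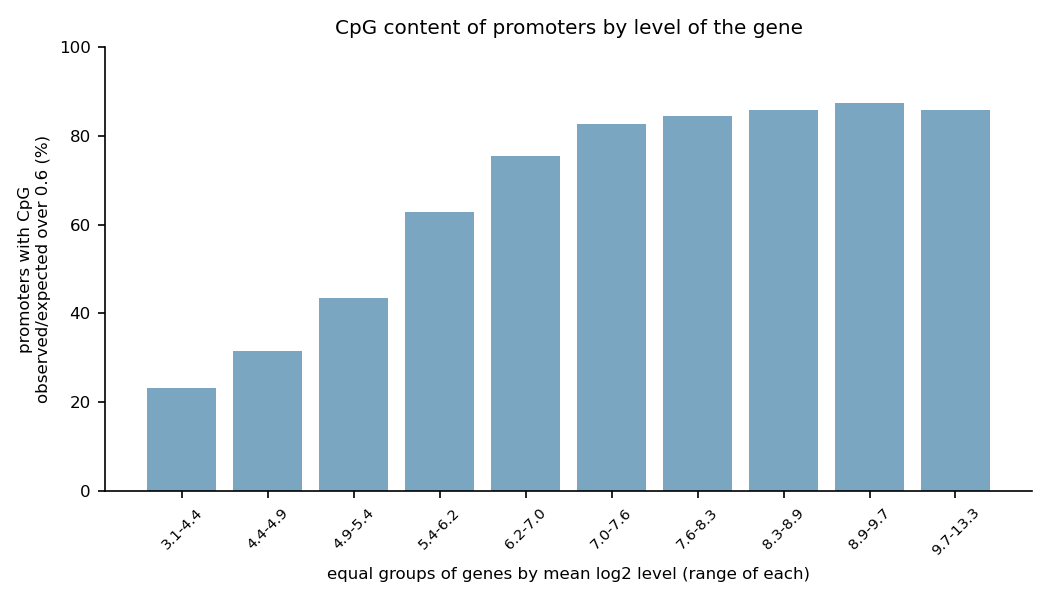
Share of promoter windows (250 bases before the RefSeq start, 11367 genes) with observed over expected CpG above 0.6, for 10 equal groups of genes ordered by mean log2 level on the 3 untreated arrays. Bars start at 0, and the share goes from 23.2% in the lowest group to 85.8% in the highest.

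Among epithelial genes, the keratins KRT7, KRT8 and KRT19 were high while several regulators lay in the range of olfactory receptors. Of 26 measured genes of simple epithelium (list median 6.96), 19 passed the olfactory mark, 13 the second mark and 4 were high. The keratin KRT8 read 11.32, 11.18 and 11.06, its frequent partner in simple epithelia KRT18 8.46, 8.86 and 8.95, and KRT7, a keratin of ducts and of ovarian carcinomas, 10.89, 10.64 and 10.62. KRT18 was lower on replicate 1 than on the others and was not high. TJP1, the tight junction scaffold ZO-1, was high at 10.13 ± 0.11. EPCAM, an adhesion molecule of epithelia, read 8.09, 8.23 and 8.36, and CDH1, for E-cadherin, 7.58, 7.43 and 7.47. Both passed the second mark on each array.

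The regulators read otherwise. ESRP1, which directs epithelial splicing, read 4.54, 4.87 and 4.62, GRHL2, a factor that maintains epithelial genes, 4.19, 4.41 and 4.26, and RAB25, an epithelial trafficking GTPase, 3.94, 4.63 and 4.27. All 3 stayed below the olfactory mark on each array, as did OVOL1 (4.76 ± 0.14), GRHL1 (4.90 ± 0.24) and the intestinal keratin KRT20 (4.58 ± 0.01). EHF, an epithelial ETS factor, was at 8.28 ± 0.04 and passed the second mark.

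Desmosome genes differed among themselves. Of 21 genes of the squamous and basal list, 13 passed the olfactory mark, 8 the second, and 2 were high: DSG2, the desmoglein found in most epithelia, at 11.02 ± 0.12, and DSP, for desmoplakin, at 10.61, 10.64 and 10.75. The epidermal desmogleins DSG1 (4.18 ± 0.30) and DSG3 (4.56 ± 0.22), the desmocollin DSC1 (4.26 ± 0.22) and involucrin, IVL (4.42 ± 0.06), lay below the olfactory mark. Among 18 claudins, which seal tight junctions, 11 passed the olfactory mark and 6 the second. CLDN1 was high at 11.30, 11.28 and 11.45, CLDN16, known for the kidney, read 9.63 ± 0.13, and CLDN3 and CLDN4, known from ovarian carcinomas, 9.00 ± 0.17 and 7.79 ± 0.17. CLDN6, an embryonic claudin, was at 3.41 ± 0.10, below the mark.

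Cadherins known from different tissues were measured above the marks together. CDH6 (K-cadherin) read 10.19, 10.22 and 10.35, CDH2 (N-cadherin) 10.07, 9.87 and 10.07 and CDH16 (a kidney cadherin) 9.07, 8.85 and 9.01. CDH6 and CDH2 were high. In the list of 19 cadherins 6 passed the olfactory mark and 11 lay below it on each array, the latter with CDH11, a mesenchymal cadherin (4.71 ± 0.12), and CDH5, of endothelium (4.55 ± 0.12).

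Of the lineage lists, whose members were chosen with earlier results of these data known, the mesenchymal list held the largest share of high genes, 48%. Of 25 measured (list median 9.62), 20 passed the olfactory mark, 18 the second and 12 were high, against 9.07% of all genes. VIM, for the filament protein vimentin, read 11.73, 11.38 and 11.51, FN1, for fibronectin, 11.81, 11.79 and 11.91, and SPARC, a matrix glycoprotein, 11.24, 11.25 and 11.42. Of the transcription factors, SNAI2 was high at 11.64, 11.55 and 11.58 and ZEB1 at 10.08, 9.71 and 10.10. TWIST1 passed the second mark (7.26 ± 0.14), while SNAI1 (5.70 ± 0.16), ZEB2 (5.35 ± 0.14) and PRRX1 (5.27 ± 0.15) were borderline. FN1 has more than 1 probe set, and its mean over them was 10.05 against 11.84 on the brightest, which is used here. Of the genes named, KRT7, KRT8, CCND1, MECOM, ENO1, ITGB1, PLAU, HBB, CEACAM5, CXCL2, COL1A2, TMEM14B, TIMP3 and DES also appear on a probe set that names several genes, which was left out.

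**Figure D3:**
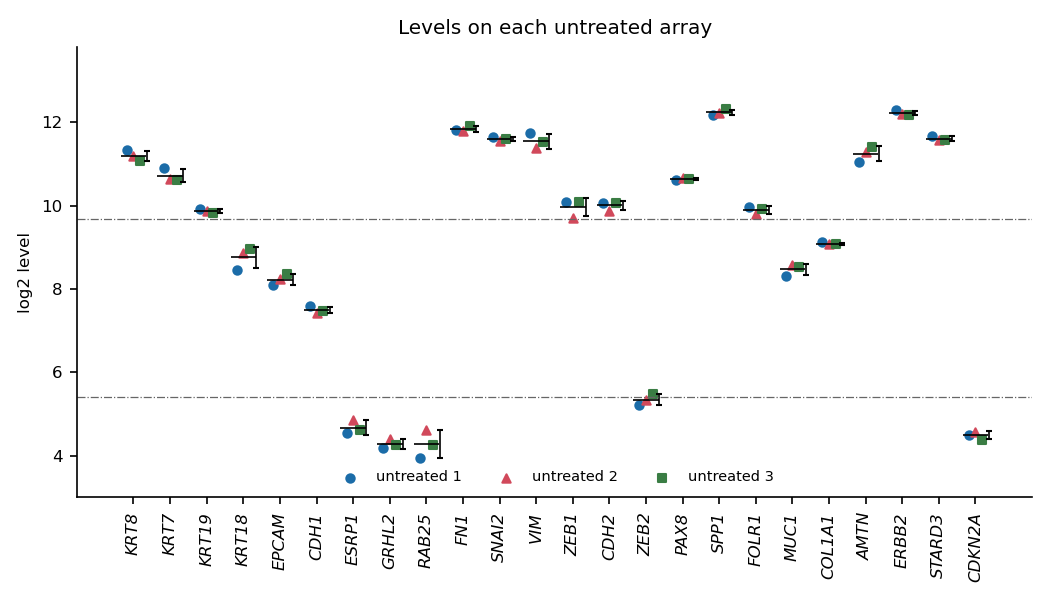
Log2 levels of lineage, marker and neighbour genes on each of the 3 untreated arrays (points), with the mean (line) and SD (bar, n = 3). The broken lines are the means over arrays of the olfactory mark and the high mark. Keratins KRT8, KRT7 and KRT19 and mesenchymal FN1, SNAI2 and VIM lie above the upper line, and ESRP1, GRHL2, RAB25 and CDKN2A below the lower one.

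Markers of the Mullerian lineage and of ovarian carcinoma passed the olfactory mark in 70.6% of cases, near the 64.8% of all genes, and single members ranged over the whole scale. Of 34 measured (list median 6.82), 24 passed the olfactory mark, 17 the second and 5 were high. PAX8, the Mullerian lineage factor, read 10.61, 10.65 and 10.64 (10.63 ± 0.02). SPP1, for the secreted phosphoprotein osteopontin, was at 12.17, 12.22 and 12.31, SLPI, a secreted protease inhibitor, at 10.92, 10.73 and 10.85, and FOLR1, the folate receptor, at 9.96, 9.80 and 9.92. CD24, a small surface glycoprotein, was high as well (10.48 ± 0.24). SOX17 (7.54 ± 0.19), MSLN, for mesothelin (7.21 ± 0.15), and ESR1, for the estrogen receptor (7.56 ± 0.07), passed the second mark. WFDC2, for the serum marker HE4 (5.81 ± 0.09), and WT1 (5.68 ± 0.05) passed the olfactory mark alone. PGR, for the progesterone receptor (4.62 ± 0.28), the oviduct genes OVGP1 (4.96 ± 0.06) and FOXJ1 (5.26 ± 0.18), and the kallikreins KLK6 (4.72 ± 0.15) and KLK7 (4.60 ± 0.06) lay below it.

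HOX genes, which set position along the body axis, were measured in unequal numbers per cluster. Of 8 measured HOXB genes 7 passed the olfactory mark and 6 the second, such as HOXB2 (9.61 ± 0.24) and HOXB8 (9.21 ± 0.14). Of 7 HOXD genes 3 passed the olfactory mark, with HOXD8 at 7.66 ± 0.09, and of 6 HOXC genes 1 did. Only 1 HOXA gene was measured, HOXA2, at 6.46 ± 0.03.

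Of 18 genes of granulosa, theca and stromal cells 2 passed the olfactory mark and 0 the second, namely INHBA (6.68 ± 0.18) and INHBB (6.17 ± 0.07), which encode activin subunits. Without replicate 2 the count was 7. CYP19A1, the aromatase, read 4.23 ± 0.23, FSHR, the receptor of follicle-stimulating hormone, 4.69 ± 0.40, and FOXL2, the granulosa factor, was borderline at 5.52 ± 0.13. Of 11 mesothelial genes 6 passed the olfactory mark and 3 the second, which were GATA6 (8.35 ± 0.07), LRRN4 (7.53 ± 0.07) and MSLN. Calretinin, CALB2, was at 4.96 ± 0.22, below the mark. Of 17 germ cell genes, KIT (7.40 ± 0.07) and UTF1 (6.07 ± 0.11) passed the olfactory mark, and KIT the second. DDX4, the germ cell helicase, read 4.36 ± 0.28.

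Of 22 cancer-testis genes, normally expressed in germ cells, XAGE3 and MAGEA8 (6.17 ± 0.27) passed the olfactory mark and 0 passed the second. XAGE3 read 5.92, 6.70 and 8.40, so the 3 flasks spread over more than 2 log2 units. Of 12 measured MAGE genes 11 lay below the olfactory mark on each array.

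Of the genes of cell types that a culture of 1 line should not hold, most leukocyte, endothelial, erythroid, liver and muscle genes lay in the range of olfactory receptors. In RNA of a whole culture, few cells of a type and little RNA per cell cannot be told apart. PTPRC, the pan-leukocyte phosphatase CD45, read 4.39, 4.70 and 4.21, and 28 of 34 leukocyte genes lay below the olfactory mark. The 4 that passed it were CD68, CD52 (5.98 ± 0.21), NKG7 (5.89 ± 0.25) and CD8A (5.88 ± 0.17), the last 3 without passing the second mark. CD68 passed the second mark at 9.36 ± 0.07; it encodes a lysosomal protein that is not confined to macrophages. Of 23 endothelial genes 4 passed the olfactory mark and 0 the second, and 7 passed the first without replicate 2. With all arrays they were CD34 (6.31 ± 0.11), CLDN5 (6.19 ± 0.08), SOX18 (5.76 ± 0.10) and ENG (5.64 ± 0.13), and CDH5 and VWF (5.01 ± 0.12) were among the genes below the mark. HBB, for beta globin, read 4.35 ± 0.28, albumin, ALB, 4.59 ± 0.19, and the muscle kinase CKM 4.88 ± 0.03, all below. TFRC, the transferrin receptor, listed with erythroid genes, was high at 10.57 ± 0.12, and is used by dividing cells in general.

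Fibroblast genes were mixed. Of 21 measured, 9 passed the olfactory mark and 4 the second: MFAP5, a microfibril protein, was high at 11.34, 11.03 and 11.29, and COL1A1, LUM (7.18 ± 0.17) and COL1A2 (6.97 ± 0.16) passed the second mark without being high. Other genes known from fibroblasts lay below the olfactory mark, such as DCN, for decorin, at 4.35, 4.91 and 4.32, FAP at 4.35, 4.68 and 4.24 and THY1 at 4.82, 4.76 and 4.56.

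Of 31 neural genes 10 passed the olfactory mark. L1CAM, a neural adhesion molecule also known from ovarian carcinomas, was high at 10.68, 10.47 and 10.57, and VSNL1, a neuronal calcium sensor, read 7.64, 7.81 and 7.67. Chromogranin A, CHGA, was at 4.59 ± 0.13 and SNAP25 at 4.51 ± 0.20, both below the mark. Of 25 liver and gut genes 4 passed it, namely the factors FOXA1 (7.37 ± 0.04) and FOXA2 (6.81 ± 0.20), and APOA1 (6.20 ± 0.07) and CDX2 (5.79 ± 0.03). Of 20 muscle and melanocyte genes 6 passed it: the melanocyte factor MITF (8.38 ± 0.09), which alone passed the second mark, and the muscle genes TNNT1 (7.04 ± 0.20), ACTA1 (6.35 ± 0.16), MYOG (6.32 ± 0.10), DES (5.88 ± 0.07) and TNNI1 (5.64 ± 0.17).

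**Figure D4:**
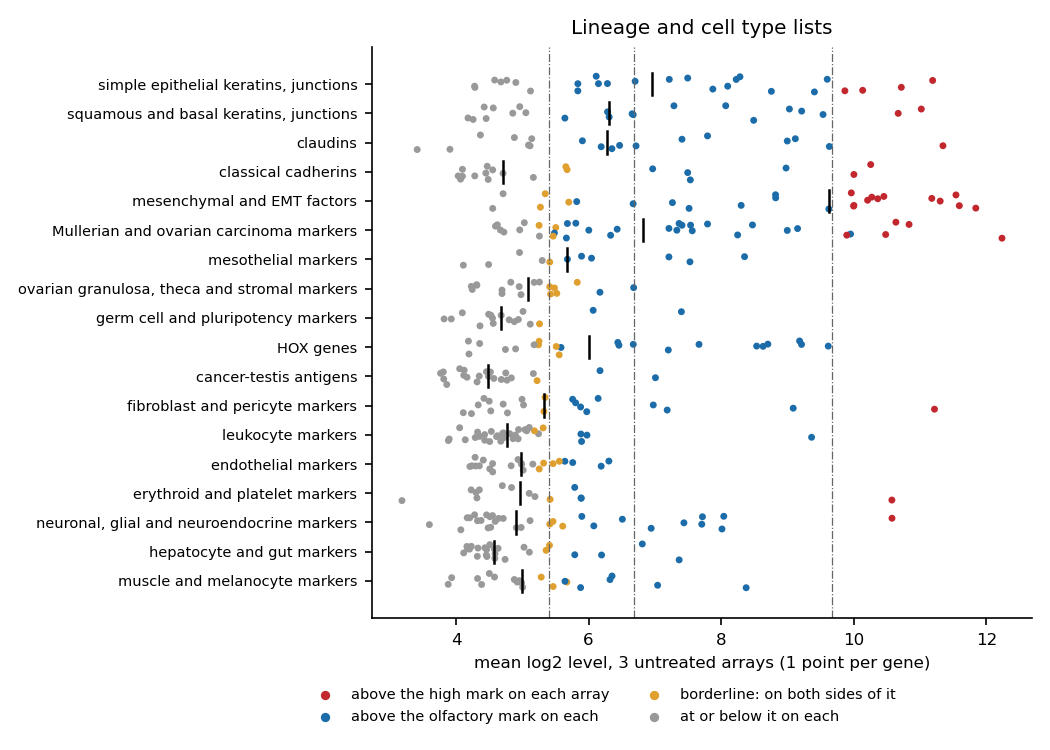
Mean log2 level over the 3 untreated arrays for each measured gene of the lineage and cell type lists (1 point per gene; red, high; blue, other genes above the olfactory mark; orange, borderline; grey, at or below it), with the list's median as a black line. Broken lines give the olfactory, second and high marks averaged over arrays. The mesenchymal list has its median at 9.62, and the leukocyte, endothelial, germ cell and granulosa lists have medians between 4.68 and 5.08.

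The neighbourhood of ERBB2 on chromosome 17 held many high genes. The window held ERBB2 and the 8 nearest measured coding genes on each side in RefSeq order. Of these 17, 13 passed the olfactory mark and 7 were high, against 64.8% and 9.07% of all genes. Both counts include ERBB2 itself, on which the window is centred. STARD3, a cholesterol carrier of late endosomes, read 11.67, 11.57 and 11.57 and PGAP3, a lipid remodelling enzyme of anchored proteins, 9.93, 9.84 and 9.82. PPP1R1B, a phosphatase inhibitor first known from brain, was high at 10.07 ± 0.14, as were MED1 (10.62 ± 0.19), CDK12 (10.15 ± 0.20) and PSMD3 (10.41 ± 0.11). MIEN1, which abuts ERBB2, read 9.61 ± 0.03 and just missed that band. The lymphoid factor IKZF3 (4.38 ± 0.12) and ZPBP2 of sperm (4.59 ± 0.25) lay in between on the chromosome and below the olfactory mark, and the muscle gene TCAP (6.13 ± 0.19) above it. Copy number was not measured, so its part was not tested.

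Around CDKN2A on chromosome 9 fewer genes passed the marks. In a window of 17 genes found the same way, 10 lay below the olfactory mark, 2 were borderline, 5 passed it and 0 were high. Of all genes, 28.2%, 7.05%, 64.8% and 9.07% did so, in that order. The 10 include CDKN2A itself, on which the window is centred. CDKN2A read 4.49 ± 0.10 and CDKN2B, its neighbour with a related inhibitor, 5.38, 5.41 and 5.33, on both sides of the mark. Of the type I interferon genes beside them, IFNB1 (3.31 ± 0.11), IFNA6 (3.53 ± 0.14), IFNE (4.49 ± 0.09), IFNA5, IFNW1 and IFNA2 lay below it and IFNA8 was borderline (5.24 ± 0.20). KLHL9, a ubiquitin ligase adaptor placed among them, read 9.00, 8.53 and 8.94 and passed the second mark on each array. Interferon genes are known to be low in most resting cells. Copy number was not measured, and the part of either in these levels was not tested.

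The list of tumour suppressors and cancer genes leaves out CDKN2A and CDKN2B. Its 27 measured members passed the olfactory mark, 23 the second, and 11 were high (40.7%). Of all genes, 64.8%, 47.3% and 9.07% did so. As the list was chosen with earlier results of these data known, its shares describe these members only. High members included RB1, the retinoblastoma suppressor (10.42 ± 0.20), CTNNB1, for beta-catenin (11.03 ± 0.08), AKT1 (10.88 ± 0.07), MECOM, a factor often gained in ovarian cancer (10.57 ± 0.10), and CCND1, for cyclin D1 (10.28 ± 0.06). ARID1A, of the SWI/SNF complex, read 9.15 ± 0.07. CDKN1A (6.63 ± 0.23) and TP53I3 (6.64 ± 0.06), both targets of p53, passed the olfactory mark and not the second on each array.

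Of the receptor tyrosine kinases (list median 5.77) 28 of 51 passed the olfactory mark, 18 the second and 4 were high: ERBB2, AXL, RYK and MET. AXL, the receptor for GAS6, read 11.28, 11.06 and 11.19, MET, the receptor for hepatocyte growth factor, 10.46, 10.49 and 10.65, and RYK, a receptor for Wnt, 10.61, 10.63 and 10.78. Within the ERBB family EGFR read 9.57, 9.60 and 9.75 and ERBB4 7.41, 7.32 and 7.74, both past the second mark, while ERBB3 stayed below the olfactory mark at 4.98, 4.89 and 4.82. EPHA2 (9.76 ± 0.11), IGF1R (9.04 ± 0.05) and FGFR1 (8.84 ± 0.08) also passed the second mark. FLT3 (4.36 ± 0.18), CSF1R (4.86 ± 0.10) and ALK (4.84 ± 0.16), known from blood cells and neurons, lay below the olfactory mark.

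Integrins, the receptors for matrix, had 6 high members of 21 (28.6%, against 9.07% of all genes), with a list median of 7.28. These were ITGA3 (11.61, 11.40 and 11.56), ITGA6 (10.67, 10.58 and 10.92) and ITGB4 (10.28, 10.19 and 10.18), which bind laminin in the pairs they form, ITGAV (10.64 ± 0.13) and ITGB5 (10.14 ± 0.14), and ITGB1, the common partner (10.93 ± 0.06). ITGAL, of leukocytes, read 4.59 ± 0.14 and ITGA8 4.15 ± 0.12, below the olfactory mark.

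Of 13 TGF-beta family receptors 11 passed the olfactory mark and 6 the second, with TGFBR2 (10.13 ± 0.17) and BMPR2 (10.59 ± 0.17) high and AMHR2, the receptor for anti-Mullerian hormone, below the olfactory mark at 4.98 ± 0.13. Of 10 frizzled receptors for Wnt 9 passed the olfactory mark, and FZD6 was high at 10.38 ± 0.06. LGR4, a receptor for R-spondin, read 9.25 ± 0.11, whereas its relative LGR5 read 4.13 ± 0.10, below the mark.

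Cytokine and death receptors passed the olfactory mark in 32 of 54 cases and the second in 19. The high ones were TNFRSF12A, the receptor for TWEAK (11.17, 11.14 and 11.15), IL13RA1 (9.81 ± 0.06), and OSMR (10.10 ± 0.18) with IL6ST (10.62 ± 0.18), which together form a receptor for oncostatin M. IL6R, the receptor chain for interleukin 6, read 6.87 ± 0.13. PRLR, for prolactin, was at 4.24 ± 0.15 and IL2RA, of T cells, at 4.32 ± 0.03.

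G protein-coupled receptors had a smaller share past the mark than all genes: 31 of 81 passed the olfactory mark (38.3%, against 64.8%; list median 5.37) and 18 the second. The 4 high members were the adhesion receptors ADGRG1 (11.66, 11.48 and 11.64), ADGRL2 (10.02 ± 0.11) and CELSR2 (10.18 ± 0.07), and F2R, the thrombin receptor (10.51, 10.53 and 10.71). NMUR2, a neuromedin U receptor known from the nervous system, read 9.27, 9.49 and 9.42, and its ligand gene NMU 7.99, 8.09 and 7.98. OXTR, the oxytocin receptor, was at 8.43 ± 0.15. Of 12 chemokine receptors 0 passed the olfactory mark and 10 lay below it on each array, CXCR4 among them (4.73, 4.97 and 4.65). GNRHR read 3.61 ± 0.16.

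No nuclear receptor of the 34 measured was high, against 9.07% of all genes. The olfactory mark was passed by 21 (61.8%, near the 64.8% of all genes) and the second by 12. NR2F6 read 9.77, 9.63 and 9.62, NR3C1, the glucocorticoid receptor, 9.03, 9.08 and 9.23, and PPARG, a fat cell regulator, 8.24 ± 0.09. VDR, the vitamin D receptor (6.29 ± 0.08), passed the olfactory mark alone. ESR2 (4.34 ± 0.08) and PGR lay below it while ESR1 passed both marks.

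Surface antigens that antibodies are aimed at were high in 11 of 40 cases (27.5%, against 9.07% of all genes). Their share past the olfactory mark was 65%, against 64.8% of all genes. Beyond ERBB2, AXL, MET, FOLR1, L1CAM and CDH6 the high ones were ALCAM (11.42, 11.36 and 11.54), F3, the tissue factor that starts clotting (10.11, 10.35 and 10.28), LY6E (9.97 ± 0.04), CD70, a ligand known from activated lymphocytes (9.98, 9.58 and 9.96), and CD47, which restrains phagocytes (9.82 ± 0.14). CD276 (B7-H3) read 9.17 ± 0.08, while CD274, for PD-L1, read 4.58, 4.51 and 4.61, below the olfactory mark. CEACAM5 (4.33 ± 0.28), GPC3 (4.34 ± 0.13) and VTCN1 (4.55 ± 0.16) lay there too. Of 10 mucins and mucin-like genes 4 passed the olfactory mark, with PODXL, for podocalyxin, high at 10.94 ± 0.07 and MUC4 (4.87 ± 0.07), MUC13 (4.75 ± 0.17) and MUC17 (4.18 ± 0.21) below it.

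Tetraspanins, which organise membrane domains, were high in 9 of 32 cases (28.1%, against 9.07% of all genes). CD81 read 12.32, 12.26 and 12.28, CD151, which binds laminin-binding integrins, 12.02, 11.96 and 11.91, and TSPAN1 11.35, 11.31 and 11.53. CD37 (4.87 ± 0.39) and CD53 (4.51 ± 0.15), of leukocytes, and TSPAN8 (3.73 ± 0.11) lay below the olfactory mark. Adhesion and shedding enzymes included 3 ectoenzymes past the second mark, ANPEP (aminopeptidase N, 11.17, 11.06 and 11.08), DPP4 (9.50, 9.46 and 9.79) and NT5E (CD73, 8.37 ± 0.16), and MME, for neprilysin, below the first (5.05 ± 0.16). CAV1, the coat protein of caveolae, was high at 11.65, 11.47 and 11.79. ICAM1 (5.03 ± 0.17) and VCAM1 (4.29 ± 0.21), adhesion molecules that cytokines induce, lay below.

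Antigen presentation genes divided by class. Of 9 genes of the class I route all passed the olfactory mark, 8 the second and 3 were high: B2M, the light chain (11.07, 10.87 and 10.89), TAPBP (10.33 ± 0.10) and the peptide transporter TAP1 (9.84 ± 0.06). Of 7 class II genes 0 passed and 6 lay below the olfactory mark on each array, such as HLA-DRA (3.83, 4.26 and 3.83), CD74 (4.89 ± 0.19) and the activator CIITA (4.92 ± 0.13).

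Among secreted proteins the matrix list had 11 high genes of 62 (17.7%, against 9.07% of all genes). THBS1, for thrombospondin 1, read 12.43, 12.25 and 12.35, VCAN, for the proteoglycan versican, 11.74, 11.77 and 11.93, and LAMC1, a laminin chain, 11.13, 11.22 and 11.28. AMTN and SPP1 lie in a family of secreted calcium-binding phosphoprotein genes, of which the others measured were not high: IBSP read 5.85 ± 0.03, ENAM 5.42 ± 0.33, ODAM 4.51 ± 0.28, DMP1 4.26 ± 0.17, MEPE 4.18 ± 0.31 and AMBN 3.91 ± 0.18. The last 4 lay below the olfactory mark on each array, and ENAM was borderline. Of 38 collagen genes 18 passed the olfactory mark (47.4%), 8 the second and 1, COL12A1 (11.07 ± 0.08), was high. The basement membrane chains COL4A2 (9.14 ± 0.16) and COL4A1 (8.72 ± 0.16) passed the second mark, and COL3A1 was borderline at 5.12, 5.61 and 5.25.

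Of 22 measured matrix metalloproteinases 8 passed the olfactory mark and 0 were high: MMP2, a gelatinase, read 9.67, 9.44 and 9.61, MMP1, the interstitial collagenase, 9.38, 9.20 and 9.52, and MMP7, matrilysin, 8.47, 8.25 and 8.35. MMP14 (4.87 ± 0.19), MMP9 (5.15 ± 0.06) and MMP3 (4.65 ± 0.02) lay below it. Of 4 TIMP genes, which encode inhibitors of these enzymes, TIMP1 (11.76, 11.57 and 11.70) and TIMP2 (11.19, 10.86 and 10.96) were high, and TIMP3 (5.73 ± 0.10) and TIMP4 (5.29 ± 0.11) borderline. PLAU, for urokinase, was high at 10.23, 10.16 and 10.14, as were the lysosomal proteases LGMN (11.56 ± 0.05) and CTSB (10.69 ± 0.06), the protease inhibitors CST3 (11.20 ± 0.06) and SERPINE2 (9.82 ± 0.13), and SERPINH1, a collagen chaperone of the serpin family (10.40 ± 0.17). Of 12 kallikreins 10 lay below the olfactory mark and 0 passed the second.

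Of 99 growth factors and related ligands 49 passed the olfactory mark, 30 the second and 6 were high. The list also holds AMTN, a marker of these cells and no growth factor, as 1 of the 6. The others were GRN, for progranulin (11.58, 11.49 and 11.54), CCN2, the connective tissue growth factor (10.29, 10.44 and 10.35), FSTL3, which binds activin (10.31 ± 0.03), EDN1, for endothelin 1 (9.99, 10.27 and 10.35), and DKK1, a Wnt inhibitor (10.11, 9.87 and 10.15). VEGFA read 9.66 ± 0.17 and TGFB2 9.41 ± 0.15. For the ERBB family, the ligand genes NRG1 (8.51 ± 0.10), HBEGF (7.87 ± 0.23) and TGFA (7.43 ± 0.17) passed the second mark, while EGF (4.57 ± 0.20) and EPGN (4.20 ± 0.09) lay below the first. HGF, the ligand of MET, was at 4.78 ± 0.40, below the olfactory mark, and GAS6, the ligand of AXL, at 7.73 ± 0.11, past the second. Of 19 Wnt genes, WNT7A was high at 10.72, 10.71 and 10.85 and WNT7B read 8.62 ± 0.32.

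Chemokines and cytokines passed the olfactory mark in 21.2% and 32.8% of cases, against 64.8% of all genes. Of 33 chemokines 7 did so and 4 the second, namely CXCL8 (7.31, 8.32 and 7.87), which draws neutrophils, CCL28 (7.55 ± 0.19), CXCL2 (6.97 ± 0.05) and CXCL3 (6.89 ± 0.18). CXCL10 (4.41 ± 0.31) and CXCL11 (3.68 ± 0.38), which interferon induces, lay below. Of 58 cytokines 19 passed the olfactory mark and 1, CD70, was high. IL18 (9.60 ± 0.21), TNFSF10, for the death ligand TRAIL (9.12 ± 0.04), CSF1 (8.70 ± 0.10) and LIF (8.05 ± 0.11) passed the second mark, IL6 the first (5.74, 6.11 and 6.15), and TNF was borderline (5.50 ± 0.15).

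The list of annexin, S100, galectin and related proteins had 14 high genes of 40 (35%, against 9.07% of all genes). S100A10 (12.36, 12.29 and 12.53), which pairs with annexin A2, S100A16 (12.28, 12.16 and 12.41) and LGALS1, for galectin 1 (12.15, 12.07 and 12.01), were among them. S100A8, of myeloid cells, read 4.29 ± 0.23 and S100B, of glia, 3.60 ± 0.04, below the olfactory mark. IGFBP7 (11.62 ± 0.07), IGFBP3 (10.07 ± 0.07) and the complement protein C3 (10.09 ± 0.12) were high.

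In several steps of glycolysis one isozyme was high and a tissue-restricted one was not. Of 29 genes measured, 18 passed the olfactory mark (62.1%) and 8 were high (27.6%), against 64.8% and 9.07% of all genes. The list median was 7.17. LDHA, for the lactate dehydrogenase A chain, read 13.32, 13.35 and 13.15, LDHB 10.29, 10.09 and 10.15, and the testis form LDHC 4.38, 4.64 and 4.17. PGK1 was high (13.14, 12.93 and 13.01) and its testis form PGK2 was not (4.21 ± 0.32). ENO1 (12.46 ± 0.02), PKM (11.58 ± 0.10), GPI (11.34 ± 0.10) and PFKP (10.70 ± 0.04) were high, and ENO3 of muscle (5.32 ± 0.09) and PKLR of liver and red cells (5.19 ± 0.08) borderline. For the first step, hexokinase, HK1 read 8.13 ± 0.07, HKDC1 7.77 ± 0.12 and HK2 6.65 ± 0.18.

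Of 41 sugar and amino acid transporters 23 passed the olfactory mark (56.1%) and 7 were high (17.1%), against 64.8% and 9.07% of all genes. The list median was 6.03. SLC2A1, the glucose transporter GLUT1, read 11.36, 11.41 and 11.50, while SLC2A2 of liver (4.18 ± 0.17), SLC2A4, which responds to insulin (5.18 ± 0.14), and SLC2A5, for fructose (5.03 ± 0.09), lay below the olfactory mark. SLC7A11, the cystine carrier, read 11.94, 12.03 and 12.11, SLC7A5, a carrier of large neutral amino acids, 11.57, 11.39 and 11.43, and SLC3A2, the partner of both, 10.92, 10.68 and 10.79. The glutamine carriers SLC38A1 (11.14 ± 0.15) and SLC38A2 (10.97 ± 0.09) were high and SLC1A5 was at 9.52 ± 0.10.

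Of energy metabolism genes, the olfactory mark was passed by 52 of 57 respiratory chain and ATP synthase subunits (91.2%, against 64.8% of all genes), with COX6B1 (11.88 ± 0.07) high and the tissue-restricted forms COX6A2 of muscle (5.10 ± 0.25), COX4I2 (4.36 ± 0.09) and COX8C (4.77 ± 0.31) below it. NDUFB3, a common subunit of complex I, read 4.04 ± 0.53 all the same. The mark was also passed by 30 of 37 genes of the TCA cycle and gluconeogenesis (81.1%), a list with cytosolic enzymes as well, where SDHA (11.56 ± 0.06) and MDH2 (11.29 ± 0.05) were high and the enzymes of glucose release, PCK1 (4.55 ± 0.08), FBP1 (4.98 ± 0.20) and G6PC1 (4.99 ± 0.40), lay below.

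Of 31 lipid synthesis genes 30 passed the olfactory mark (96.8%) and 8 were high (25.8%), against 64.8% and 9.07% of all genes. MSMO1, a sterol oxidase of cholesterol synthesis, read 11.60, 11.56 and 11.86, SCD, which makes monounsaturated fatty acids, 10.47, 10.30 and 10.58, and FASN, the fatty acid synthase, 9.35 ± 0.06. Fatty acid oxidation had 2 high genes of 26, ACADVL (10.01 ± 0.11) and FABP3 (10.02 ± 0.25), and the fatty acid carriers CD36 (4.48 ± 0.27) and FABP4 (3.88 ± 0.25) lay below the olfactory mark.

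In amino acid and one-carbon metabolism 8 of 31 genes were high (25.8%, against 9.07% of all genes). MAT2A, which makes S-adenosylmethionine, read 11.97, 12.06 and 12.09, NNMT, which consumes it, 10.57, 10.33 and 10.47, and IDO1, which breaks down tryptophan and is known as an interferon target, 10.27, 10.41 and 10.38. The interferon-induced CXCL10 thus read below the olfactory mark while IDO1 was high on each array. GLUL, for glutamine synthetase, was at 5.90 ± 0.12 and ASNS, for asparagine synthetase, at 6.50 ± 0.12.

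Of 41 redox and pentose phosphate genes 37 passed the olfactory mark (90.2%, against 64.8% of all genes). GSTP1, a glutathione transferase, read 12.33, 12.14 and 12.19, GPX4, which repairs lipid peroxides, 11.75, 11.63 and 11.64, and PGD and TKT of the pentose phosphate route 11.53 ± 0.17 and 11.35 ± 0.06, all high. HMOX1, heme oxygenase 1, was at 7.70, 7.11 and 7.67. Drug metabolism genes were mixed, with 26 of 47 past the olfactory mark. The drug exporter ABCC1 was high at 10.44, 10.38 and 10.38, and ABCB1, for P-glycoprotein (4.25, 4.73 and 4.25), and ABCG2 (4.61, 5.04 and 4.70) lay below the mark. CYP1B1 was high (10.24, 10.22 and 10.45) and its relative CYP1A1 below (4.22 ± 0.30). ALDH7A1 was high (10.28 ± 0.07), and ALDH1A1, often used to mark stem-like cells, below (4.82 ± 0.14).

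**Figure D5:**
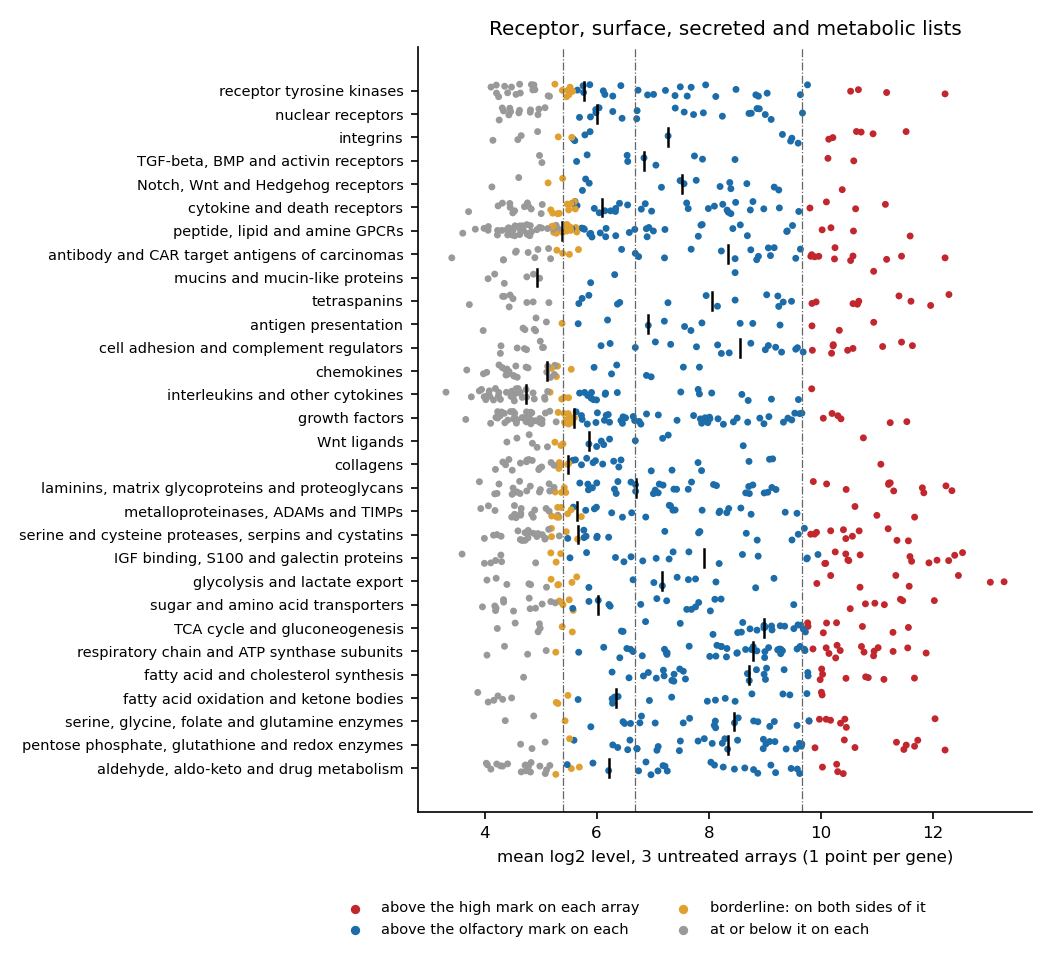
Mean log2 level over the 3 untreated arrays for each measured gene of receptor, surface, secreted and metabolic lists (1 point per gene; red, high; blue, other genes above the olfactory mark; orange, borderline; grey, at or below it), with list medians in black and the olfactory, second and high marks as broken lines. The TCA cycle list has its median at 8.99, and the cytokine and chemokine lists have medians at 4.74 and 5.11.

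Cell cycle genes had a list median of 9.06. Of 38 measured, 34 passed the olfactory mark (89.5%) and 13 were high (34.2%), against 64.8% and 9.07% of all genes. The high ones included CDC20 (12.20, 12.21 and 12.33), PLK1 (11.24 ± 0.09) and MKI67 (10.55 ± 0.16). CCNA1, a cyclin mostly of the testis, was high as well, at 10.39, 10.42 and 10.56. CCND2 (4.15 ± 0.21) and CDKN2A lay below the olfactory mark, whereas CCND1 was high. Of 29 apoptosis regulators 22 passed it: BCL2L1, for BCL-XL, was high (10.93, 10.78 and 10.89), and BCL2 itself borderline (5.68, 5.68 and 5.51).

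The 15 genes with the largest levels were mostly of general function. They were ACTB (13.54 ± 0.06), HSPA8, LDHA, PGK1, H1-4, TMEM14B, TAGLN2, ND5, ACTG1, ANXA1, TMSB10, H3C11, H2AZ1, ERH and MALAT1 (12.46 ± 0.13). Actins and actin-binding proteins, histones, a heat shock protein and a mitochondrial subunit are among them. ERBB2 lay at percentile 99.8 and SPP1 at 99.8. Over all 1631 measured genes of the 54 lists, 936 passed the olfactory mark (57.4%) and 212 were high (13%). Of all genes, 64.8% and 9.07% did so.

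The 3 flasks differed in 109 genes by an SD over 0.5, and replicate 2 was the farthest array in 79 of them. The count was 41 without replicate 2, 252 without replicate 1 and 276 without replicate 3. Each of these counts rests on SDs over 2 arrays, which are less steady than SDs over 3, so they are not like the 109. The gene with the largest SD among those above the olfactory mark on at least 1 array was FAM223A (4.71, 6.23 and 3.59), followed by XAGE3, TMC7 (6.26, 3.80 and 4.87) and SYP, for synaptophysin (5.36, 6.76 and 4.71). ZNF675 (8.93, 7.27 and 8.72) was lower on replicate 2 than on the others, and TMEM167A (5.87, 7.34 and 5.42) higher. High genes had 2 such cases, of which EGR1, an immediate early factor induced by growth factors, read 11.11, 11.03 and 9.97, lower on replicate 3. FOS, another immediate early factor, read 6.59, 6.49 and 5.61, also lowest there, while JUN was at 9.07, 9.01 and 8.91 and IER3 at 11.50, 11.55 and 11.43. EGR1, FOS, JUN and IER3 were picked after their values were seen.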

How the data were processed

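Total RNA of 3 untreated flasks of SKOV3 cells was measured on exon arrays, 1 array per flask, per the labels. The deposited values are on the log2 scale, 1 per transcript-level probe set. The authors' processing notes name the RMA method, the Partek software and the hg18 build; settings and software versions are not given in the sources used here. RMA is known to shrink differences among dim probes. Arrays have no read depth: the number of arrays limits the precision, and any SD covers these 3 flasks only. Scanner files and detection calls were not used here.

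Of 17859 probe sets, 14413 named 1 gene, 2405 named several and 1041 none in the platform annotation. Symbols were updated through RefSeq (14385 matched), which left 14215 genes; 195 of them had more than 1 probe set, and the brightest was used. In all, 206 list entries were found on shared probe sets alone and were not used. Bands were set on each array as the report says. The 54 lists and their members were chosen with earlier results of these data known. Named genes are the 5 markers, the 15 largest means, the 10 largest SDs among genes above the olfactory mark on at least 1 array, up to 5 high and 4 lowest members per list, and all members of the tumour suppressor, ERBB2 and CDKN2A lists as far as space allowed. Other members were named for their role, with their values seen. Promoter windows came from RefSeq, and 2848 genes had none in the table. No statistical test was made. Band assignment was tested on simulated data. Python scripts and limma 3.58.1 (R 4.3.3), for other normalizations only, were used. Alternatives were other marks, quantile, cyclic loess and median scaling, the mean of a gene's probe sets, and leaving out each array.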

Additional observations from a re-analysis of the deposited data

How the results depend on the processing

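No paired analysis was possible because 1 group was described and no value comes from a test. The 9208 genes above the olfactory mark became 7735 with the 99th percentile as mark, 6729 with the second mark, 9721 with the mark applied to the mean of the 3 arrays, and 9219 to 9679 with 1 array left out. Of the 442 genes fixed by the naming rule, 37, 52 and 17 changed band under the first 3 of these. None did under quantile, cyclic loess or median scaling or with the mean of a gene's probe sets. Genes named besides for their role, such as KRT18 and EPCAM, were not in this count. The number of genes with an SD over 0.5, 109, depended on the setting: it was 70 after cyclic loess, 41 among genes above the olfactory mark only, and 41 to 276 with 1 array left out, the lowest without replicate 2. With 1 array left out, each SD covers 2 arrays in place of 3. Of 54 lists, the count past the mark moved by more than 1.5 times, or to or from 0, in 15 with the 99th percentile, 24 with the second mark, 1 with the mean of arrays (1 after cyclic loess) and 2 without replicate 2, which were the granulosa list, from 2 to 7, and the endothelial list, from 4 to 7. FN1 moved from 11.84 to 10.05 and RPS19 from 4.93 to 4.38 when probe sets of a gene were averaged. Levels near the olfactory mark are limited by signal over background, since no detection calls were used and the arrays differ there the most.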
